A study of Mus musculus with 6 samples.

Results

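Trp53, the mouse gene of the transcription factor p53, and 9 genes that p53 is known to induce (Mdm2, Ccng1, Sesn2, Gdf15, Btg2, Phlda3, Zmat3, Trp53inp1 and Rrm2b) were compared between 1G11 cells that overexpress superoxide dismutase 3 (1G11-SOD3) and mock controls (1G11-mock). Members were the non-control spots whose annotation names 1 of these 10 genes, which gave 13 spots and 12 probes of 59305 spots and 55681 probes on each array, which carry names of 22243 genes in all. The 1G11 line is a mouse microvascular endothelial line, labelled with the strain C57BL/6NCrLBR. Cells of both lines, control cells included, had spent 6 h in medium conditioned by N202.1A murine mammary cancer cells, so that no array shows untreated cells. Each group was a single line with 3 numbered replicate arrays, and differences between the lines that have nothing to do with SOD3, an extracellular antioxidant enzyme, cannot be told apart from those that do. All 6 arrays were single-color Agilent arrays on 1 slide, with the 1G11-mock arrays in slide row 2 and the 1G11-SOD3 arrays in slide row 1, and line and slide row cannot be told apart either.

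p53 is held at a low level in unstressed cells because Mdm2, an E3 ubiquitin ligase that p53 itself induces, marks it for degradation. DNA damage, oxidative stress and oncogene signals stabilize the p53 protein, which then binds paired decamer elements in DNA and turns on genes for cell cycle arrest, DNA repair, metabolic adaptation and apoptosis. Because p53 is regulated mostly as a protein, the level of its mRNA and the levels of its target mRNAs are separate readouts, and only mRNA was measured here. In endothelial cells p53 is known for its part in growth arrest, senescence and the response to oxidants.

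The promoters of the members were searched for the paired decamer that p53 binds. RefSeq sequence of GRCm38.p6, from 250 bases before to 50 bases after the start of a gene, was found for 7 of the 10 genes. Trp53inp1, Zmat3 and Rrm2b had no entry. The p53 decamer consensus, which has 10 bases and reads as the same consensus on both strands, was searched without mismatches, and the 20-base site of 2 adjoining decamers with at most 1 mismatch. A decamer was found in 8.36% of all 32851 promoters and a 20-base site in 0.0883%. Among the members a decamer was found in the windows of Mdm2, Ccng1 and Trp53, and a 20-base site only in that of Ccng1. The 2 windows of Gdf15 and those of Btg2, Sesn2 and Phlda3 held no match, which says only that these letters are not in these windows. The windows of Ccng1 and Mdm2 are shown for their matches, and those of Btg2 and Sesn2 because these genes were lower in 1G11-SOD3 cells. Capitals mark the 20-base site in Ccng1, which starts 195 bases before the gene start, and the decamer in Mdm2, which starts 186 bases before it. The Mdm2 decamer stands alone. The closest 20-base stretch in that window had 5 mismatches, so no 20-base site is marked there. All 4 genes lie on the minus strand, at chr11:40755237-40755536 (Ccng1), chr10:117710709-117711008 (Mdm2), chr1:134079106-134079405 (Btg2) and chr4:132510407-132510706 (Sesn2), and the sequences read 5′ to 3′ along the gene.
Ccng1: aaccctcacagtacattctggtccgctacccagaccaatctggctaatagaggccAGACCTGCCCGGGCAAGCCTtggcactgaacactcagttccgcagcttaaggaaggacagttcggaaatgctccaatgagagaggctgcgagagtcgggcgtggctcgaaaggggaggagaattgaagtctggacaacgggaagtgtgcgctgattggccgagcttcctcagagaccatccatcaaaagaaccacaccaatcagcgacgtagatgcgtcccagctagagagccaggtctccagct
Mdm2: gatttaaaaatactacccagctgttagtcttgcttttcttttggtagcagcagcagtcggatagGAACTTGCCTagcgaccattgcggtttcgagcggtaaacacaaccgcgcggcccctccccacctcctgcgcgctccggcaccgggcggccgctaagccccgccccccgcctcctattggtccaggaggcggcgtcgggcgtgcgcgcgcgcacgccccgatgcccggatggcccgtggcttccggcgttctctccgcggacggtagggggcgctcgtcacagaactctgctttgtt
Btg2: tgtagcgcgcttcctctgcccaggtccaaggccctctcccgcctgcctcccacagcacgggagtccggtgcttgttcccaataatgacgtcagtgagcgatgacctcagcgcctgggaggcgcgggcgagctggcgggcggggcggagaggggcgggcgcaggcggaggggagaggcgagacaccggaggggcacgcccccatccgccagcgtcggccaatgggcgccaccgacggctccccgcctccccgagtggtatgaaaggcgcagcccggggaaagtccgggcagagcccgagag
Sesn2: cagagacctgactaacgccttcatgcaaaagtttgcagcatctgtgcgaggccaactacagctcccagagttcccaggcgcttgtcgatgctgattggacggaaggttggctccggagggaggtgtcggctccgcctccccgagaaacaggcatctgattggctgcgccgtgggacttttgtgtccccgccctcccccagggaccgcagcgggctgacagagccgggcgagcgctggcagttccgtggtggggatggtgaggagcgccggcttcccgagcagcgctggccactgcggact

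Values are log2 intensities after background correction and quantile normalization across the arrays, and a value belongs to 1 probe, so that levels of different probes are not comparable. A probe was called when it differed by more than 2-fold between the lines with an adjusted p under 0.05 (limma, Benjamini-Hochberg over all probes). Between 34.2% and 43.8% of the spots per array were well above background by the scanner software's own test, and none was saturated. The overexpressed gene was checked first. The log2 intensity of the Sod3 probe was 13.61, 12.66 and 9.86 on 1G11-mock arrays 1 to 3 and 16.37, 16.30 and 16.26 on 1G11-SOD3 arrays 1 to 3. All arrays labelled 1G11-SOD3 were above all arrays labelled 1G11-mock (log2 difference 4.27 ± 0.70, SE, adjusted p = 0.00760, limma), although the probe lies in the middle of the array and the call was lost without 1G11-SOD3 array 3 (adjusted p = 0.0506). The size of the Sod3 difference was less certain, at 2.74 after position adjustment, 3.17 without 1G11-mock array 3 and 5.05 without 1G11-mock array 1. The authors plot each array as an independent experiment, while the labels number the replicates without naming separate cultures. The p-values therefore measure the spread between these samples, and RNA of a whole culture does not tell fewer expressing cells from less RNA per cell.

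The place of a spot mattered on these arrays. In the middle (rows 129 to 256 and columns 55 to 109 of 384 rows and 164 columns) spots read dim on the 1G11-mock arrays, and 768 probes were called higher (11.9%) and 4 lower (0.0622%) in 1G11-SOD3 there. None of the 13 member spots lies in that area. The dimness faded gradually toward the edges, and the median log2 difference of blocks of spots ran from -0.72 to 2.94 over the whole array. Each member measured above background is therefore also given after a smooth surface of spot position had been taken off each array (position adjusted).

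**Figure D1:**
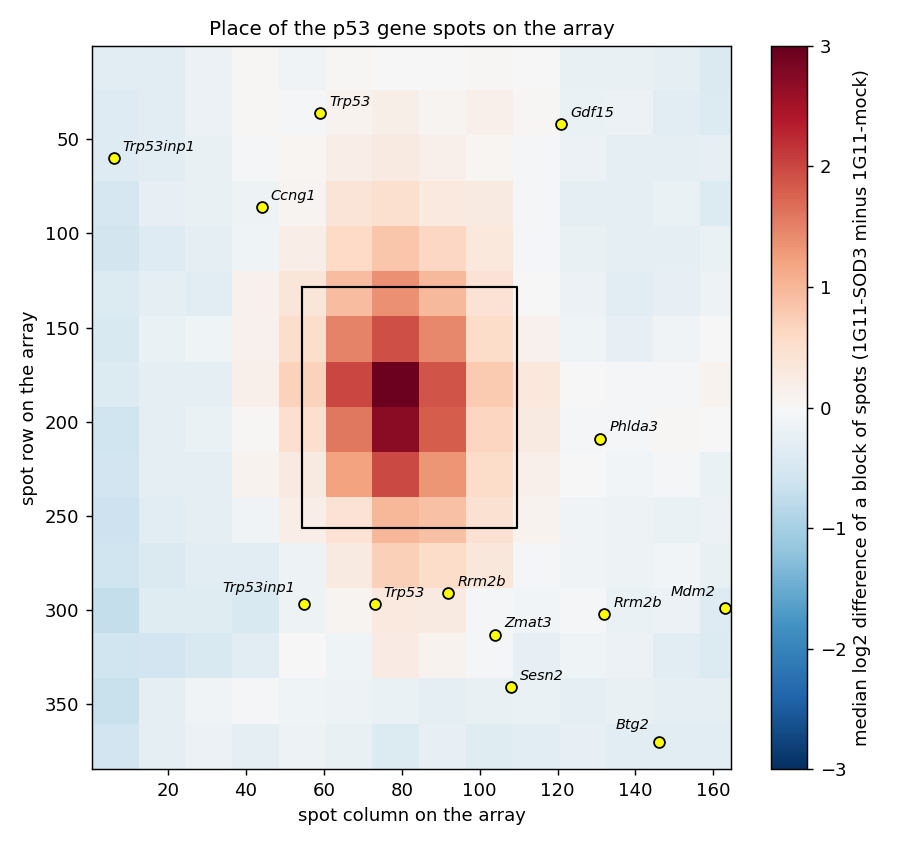
Place of the 13 spots of p53 and its target genes on the array, by spot column (x axis) and spot row (y axis). Shading gives the median log2 difference (1G11-SOD3 minus 1G11-mock) of blocks of spots, and the black frame marks the middle. All member spots (yellow) lie outside the frame, with Mdm2, Btg2 and 1 Trp53inp1 spot near the edges, where block medians were mostly below 0.

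Outside the middle, 3 of the 12 member probes were called lower in 1G11-SOD3 and none higher. They were the probes of Btg2 and Sesn2 and 1 of the 2 probes of Trp53inp1. Of all 49526 probes outside the middle, 1.86% were called, 1.2% lower and 0.66% higher, and of the 15247 that were well above background on all arrays 3.29% were called lower. With position adjustment the called members were Btg2, Trp53inp1 and Mdm2. Of all probes outside the middle, dim ones included, 0.703% were then called lower. By the brightest probe of each gene outside the middle, 232 of 20354 genes were called lower after the adjustment. On 7 member probes, of which 6 were measured above background, all 1G11-SOD3 values lay below all 1G11-mock values, as they did on 11.4% of all probes outside the middle and on 20.8% of those well above background on all arrays. No member call rests on more than 3 arrays per line, for which an exact permutation test cannot go below 0.1 (2-sided).

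Trp53 itself did not differ beyond its spread. Its probe is printed at 2 places on the array, and the mean of both copies was 10.14, 11.05 and 11.53 on the 1G11-mock arrays and 11.28, 11.13 and 11.36 on the 1G11-SOD3 arrays. The groups overlapped, and 1G11-mock array 1 was the lowest of all. The log2 difference was 0.35 ± 0.32 (SE, n = 3 arrays per line, adjusted p = 0.684, limma), with a 95% confidence interval from -0.36 to 1.06, so that neither a small decrease nor a 2-fold increase falls outside it. The 2 copies gave 0.13 and 0.57, the larger value coming from the copy nearer to the middle. Without 1G11-mock array 1 the difference was -0.03, and after position adjustment with all arrays it was 0.25 (adjusted p = 0.761, limma). Of 4 probes of other genes whose names mention p53 or Mdm2, only that of Wrap53, the antisense neighbor of Trp53, was called (log2 difference 1.95, adjusted p = 0.0234), and it lies close to the middle and was not called after position adjustment (1.07, adjusted p = 0.0697).

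Mdm2, the ubiquitin ligase that restrains p53, had log2 intensities of 14.74, 14.86 and 15.44 on the 1G11-mock arrays. On the 1G11-SOD3 arrays they were 12.67, 13.84 and 14.28. The groups did not overlap, but the 1G11-SOD3 arrays were spread widely (13.59 ± 0.84, SD, n = 3, against 15.01 ± 0.38 in 1G11-mock). The log2 difference of -1.42 ± 0.38 (SE) did not pass the test (adjusted p = 0.0739, limma). It passed with the replicate number as a block (adjusted p = 0.0119) and after position adjustment (log2 difference -1.14, adjusted p = 0.0286), and over 21 alternatives the adjusted p ran from 0.0119 to 0.211. The Mdm2 spot lies in the last but 1 column of the array, where the position surface was -0.34.

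Btg2, an antiproliferative gene that slows the passage from G1 to S phase, showed the largest difference among the members. Its log2 intensity was 10.33, 10.73 and 11.20 on the 1G11-mock arrays and 7.68, 8.93 and 9.27 on the 1G11-SOD3 arrays. Every 1G11-SOD3 array was lower than every 1G11-mock array, and the scanner software placed the spot well above background on each 1G11-mock array and on 2 of the 3 1G11-SOD3 arrays. The log2 difference was -2.13 ± 0.39 (SE, adjusted p = 0.0129, limma), a 4.37-fold lower level. After position adjustment it was -1.69 (adjusted p = 0.00417). The call was kept in 15 of 15 alternatives with all arrays and was lost without 1G11-mock array 2 (adjusted p = 0.0626) or array 3 (adjusted p = 0.0520).

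Trp53inp1, whose product modifies p53 activity and takes part in autophagy and the antioxidant response, is covered by 2 probes that differed in size. Probe A_51_P175580 read 12.80, 12.85 and 13.19 on the 1G11-mock arrays and 10.76, 10.63 and 11.95 on the 1G11-SOD3 arrays, with no overlap. It was lower by a log2 difference of -1.83 ± 0.33 (SE, adjusted p = 0.0131, limma), or 3.56-fold, and by -1.43 after position adjustment (adjusted p = 0.0445). Probe A_55_P1973906 read 9.40, 8.72 and 9.09 against 8.03, 8.25 and 8.73, with 1G11-mock array 2 just below 1G11-SOD3 array 3. Its log2 difference of -0.73 ± 0.27 (SE) did not pass the test (adjusted p = 0.218, limma). After position adjustment it was -0.53 (adjusted p = 0.390, limma). The call of the first probe was kept in 15 of 15 alternatives with all arrays and was lost without 1G11-mock array 2 (adjusted p = 0.0554) or 1G11-SOD3 array 1 (adjusted p = 0.0591). The files place the probes at different positions of chromosome 4, 11101174 to 11101233 and 11092530 to 11092589, in a build that they do not name.

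Sesn2 encodes sestrin 2, a stress-induced protein that restrains mTORC1 and supports antioxidant defense. Its log2 intensity was 11.98, 12.19 and 12.09 on the 1G11-mock arrays and 10.83, 11.18 and 10.85 on the 1G11-SOD3 arrays. Both groups were tight and did not overlap. The log2 difference was -1.14 ± 0.22 (SE, adjusted p = 0.0183, limma), or 2.20-fold lower, close to the 2-fold limit. The direction held in all 21 alternatives, but the call was kept in only 14 of them. It was lost after position adjustment (log2 difference -0.83, adjusted p = 0.131), with 2 scalings to the 75th percentile (-0.98 and -0.86), when the middle was left out (-0.97), and without 1G11-mock array 2, 1G11-SOD3 array 1 or 1G11-SOD3 array 3 (adjusted p = 0.0759, 0.0861 and 0.0785).

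**Figure D2:**
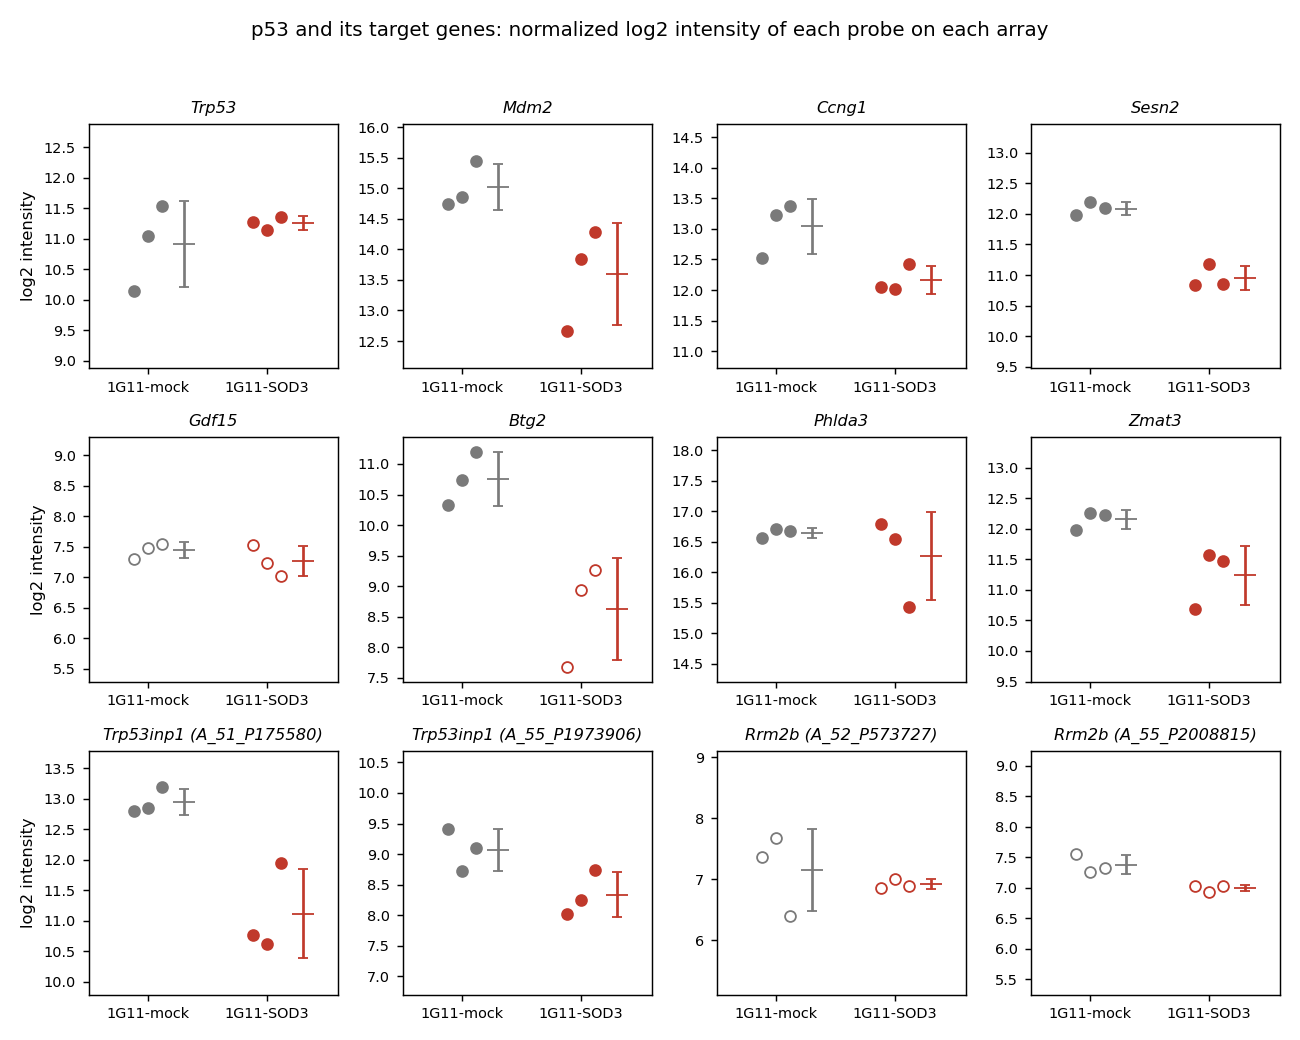
Normalized log2 intensity (y axis, each panel spanning the same number of log2 units) of the 12 probes on the 3 1G11-mock (grey) and 3 1G11-SOD3 (red) arrays, with the mean and SD beside the points. Filled points mark groups in which the probe was well above background on all 3 arrays. The red points lie below all grey points for Mdm2, Ccng1, Sesn2, Btg2, Zmat3, 1 Trp53inp1 probe and 1 Rrm2b probe. No point of Gdf15 or Rrm2b is filled.

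Ccng1 and Zmat3 did not overlap between the lines but missed the test. Ccng1, cyclin G1, which recruits a phosphatase to Mdm2, read 12.53, 13.22 and 13.38 on the 1G11-mock arrays and 12.05, 12.02 and 12.42 on the 1G11-SOD3 arrays. The lowest 1G11-mock array lay only slightly above the highest 1G11-SOD3 array, and the log2 difference was -0.88 ± 0.27 (SE, adjusted p = 0.129, limma). After position adjustment it was -0.75 (adjusted p = 0.282, limma). Without 1G11-mock array 1 it was -1.13 and was called (adjusted p = 0.0405), and over the 21 alternatives the adjusted p ran from 0.0405 to 0.358. Zmat3, a zinc finger protein that binds RNA, read 11.97, 12.26 and 12.23 against 10.68, 11.56 and 11.48. Its 1G11-SOD3 array 1 was the lowest, and the log2 difference was -0.91 ± 0.27 (SE, adjusted p = 0.113, limma) and -0.86 after position adjustment (adjusted p = 0.0548).

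Phlda3, a protein that binds phosphoinositides and restrains Akt, read 16.56, 16.71 and 16.67 on the 1G11-mock arrays and 16.79, 16.55 and 15.44 on the 1G11-SOD3 arrays. The groups overlapped, and 1G11-SOD3 array 3 alone stood apart. The log2 difference was -0.39 ± 0.32 (SE, adjusted p = 0.651, limma) and 0.03 without that array. After position adjustment with all arrays it was -0.46 (adjusted p = 0.513, limma). Gdf15, a secreted stress cytokine, and Rrm2b, the p53-induced subunit of ribonucleotide reductase, gave no signal well above background on these arrays. Their log2 intensities lay between 6.40 and 7.68, and no fold change is given.

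**Figure D3:**
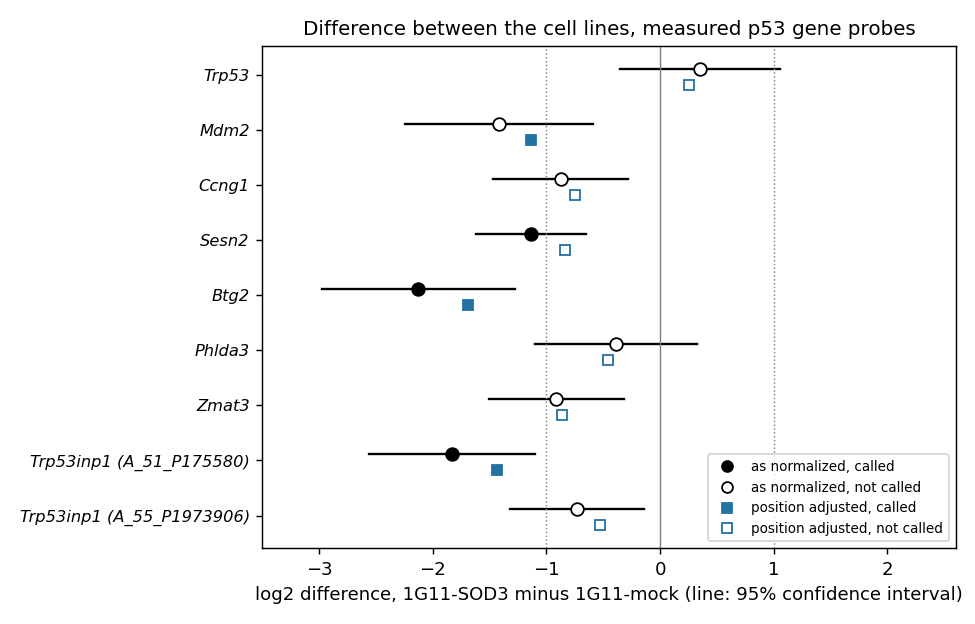
Log2 difference between the lines (x axis, 1G11-SOD3 minus 1G11-mock) of the 9 member probes measured above background. Circles give the values as normalized with 95% confidence intervals, squares the position adjusted values, filled symbols mark called probes, and dotted lines mark a 2-fold difference. Differences lie below 0 for 8 of 9 probes, and Btg2 and 1 Trp53inp1 probe are called both ways.

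The other genes of the pathway were taken from 4 lists and counted by their brightest probe outside the middle. Of 63 such genes 7 were called lower and 1 higher. Of all 20354 genes counted in this way, 1.94% were called lower and 1.19% higher, with a median log2 difference of -0.06. Only 11847 of the 20354 were well above background on at least 1 array, against 15 of 16, 25 of 25, 10 of 10 and 11 of 12 in the lists. Of probes outside the middle well above background on all arrays, 3.29% were called lower. For the 10 members the median was -0.90, with 3 called lower. After position adjustment the median was 0.00314 for all genes and -0.79 for the members.

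Among 16 regulators of p53, 1 was called lower and none higher, and the median log2 difference was -0.33, or 0.0017 after position adjustment. The called gene was Cdkn2a, whose locus encodes p16Ink4a and p19Arf, the latter an inhibitor of Mdm2. Its brightest probe read 13.31, 13.30 and 12.61 on the 1G11-mock arrays and 9.04, 9.12 and 8.98 on the 1G11-SOD3 arrays. The log2 difference was -4.03 ± 0.25 (SE, adjusted p = 7.25e-05, limma), a much wider gap than the spread within either line, and the call was kept in all 21 alternatives. Kat5, an acetyltransferase of p53, differed by 0.60 (adjusted p = 0.400) and Usp7, a deubiquitinase of Mdm2 and p53, by -0.33 (adjusted p = 0.718). A second Kat5 probe, in the middle of the array, was called higher (2.52, adjusted p = 0.00446) but not after position adjustment (0.74, adjusted p = 0.139).

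Among 27 other p53-induced genes, 25 had a probe outside the middle. Of these, 4 were called lower and none higher, and the median log2 difference was -0.44. After position adjustment 2 were called lower and the median was -0.17. Cdkn1a, which encodes the cyclin-dependent kinase inhibitor p21, read 14.51, 14.69 and 14.53 on the 1G11-mock arrays and 12.71, 12.85 and 11.55 on the 1G11-SOD3 arrays. It was lower without overlap (log2 difference -2.20 ± 0.32, SE, adjusted p = 0.00404, limma), and its second probe was called lower too (-1.78). Fas, a death receptor, was lower by -1.51 (adjusted p = 0.00974), Plk2, a stress-responsive kinase, by -1.35 (adjusted p = 0.0244) and Ercc5, a nuclease of nucleotide excision repair, by -1.09 (adjusted p = 0.0329). Fas and Cdkn1a were called in all 21 alternatives. Plk2 and Ercc5 were not called after position adjustment (-0.65 and -0.78) and were each lost when single arrays were left out, Plk2 without any 1G11-SOD3 array or 1G11-mock array 3 and Ercc5 without any array but 1G11-mock array 1. The other 2 of the 27 genes had probes only in the middle, where Fdxr, a mitochondrial reductase, was called higher (2.47, adjusted p = 0.00140, and 1.40 after position adjustment, adjusted p = 0.00883) and Bbc3, the gene of PUMA, was not called (1.04, adjusted p = 0.526, and 0.00579 without 1G11-mock array 3). The 2 brightest genes that were not called were Ddit4, an inhibitor of mTORC1 (0.97, adjusted p = 0.571, and -0.08 without 1G11-mock array 3, its lowest array by far), and Ephx1, a detoxifying hydrolase (-0.53, adjusted p = 0.339), whose dimmer probe was called lower (-1.50). After position adjustment the brighter Ephx1 probe differed by -0.96 (adjusted p = 0.0270, limma), short of the 2-fold limit. With the replicate number as a block Bax (log2 difference -1.11, adjusted p = 0.0370), a pore-forming apoptosis gene, and Polk (-1.36, adjusted p = 0.0136), a translesion polymerase, were called as well. That block raised the calls over all probes outside the middle from 920 to 1244.

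The 10 genes repressed through p53 and p21, which drive mitosis and the entry into it, all had a log2 difference above 0. Their median was 0.43 (0.67 after position adjustment), and 1 was called. Of all genes, 56.5% were below 0. The called gene was Cdk1, the mitotic kinase, at 1.24 ± 0.30 (SE, adjusted p = 0.0494, limma), whereas 2 further probes of it were dim and were not called. It was not called after position adjustment (0.87, adjusted p = 0.207), and leaving out any array but 1G11-mock array 3 ended the call. Cdc20 and Ccnb2, both of the mitotic machinery, differed by 0.47 (adjusted p = 0.424) and 0.35 (adjusted p = 0.666). Of the probes that did not stand for their gene, 1 of Ccnb1, a mitotic cyclin, was called higher (1.69, adjusted p = 0.00263, and 1.07 after position adjustment, adjusted p = 0.0525), and so was 1 of Birc5, survivin, in the middle of the array (2.19, adjusted p = 0.00069, and 1.14 after position adjustment, adjusted p = 0.0350).

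The ATF4 pathway, which is turned on by amino acid shortage and unfolded protein and shares targets such as Sesn2 with p53, had 12 genes, of which 2 were called lower. Its median log2 difference of -0.07 was close to that of all genes, and was 0.08 after position adjustment. Atf3, a stress-induced repressor, read 10.43, 10.42 and 10.78 on the 1G11-mock arrays and 9.28, 8.79 and 8.18 on the 1G11-SOD3 arrays (log2 difference -1.79 ± 0.29, SE, adjusted p = 0.00688, limma). Ddit3, the proapoptotic factor CHOP, was lower by -1.28 (adjusted p = 0.0184), and its call was lost without 1G11-mock array 2, 1G11-mock array 3 or 1G11-SOD3 array 3. Atf4 itself differed by -0.02 (adjusted p = 0.984) and Phgdh, a serine synthesis enzyme, by 0.73 (adjusted p = 0.223).

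**Figure D4:**
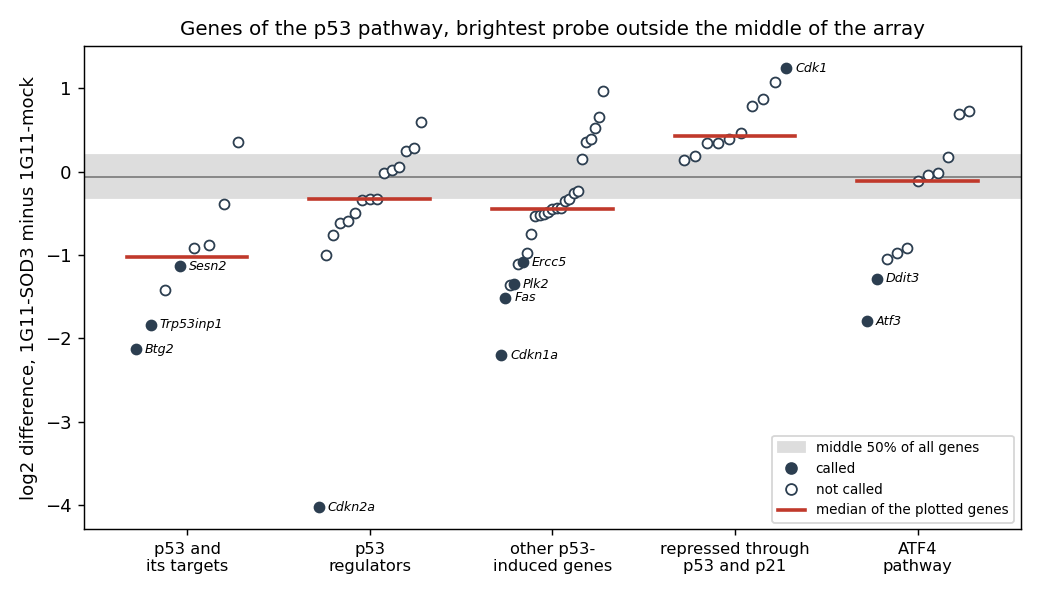
Log2 difference (y axis, 1G11-SOD3 minus 1G11-mock) of each gene of p53 and its targets and of 4 related lists, by the brightest probe outside the middle, for genes well above background on at least 1 array. Filled points are called genes, red lines the medians of the plotted genes (-1.03 for 8 of the 10 members), and the grey band the middle 50% of all genes (-0.32 to 0.20). Unlike the points, the band takes in all 20354 genes, of which 11847 were well above background on at least 1 array. Cdkn2a stands lowest at -4.03, and Cdk1 is the only called gene above 0.

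Among the lists of cell identity markers, only the mesenchymal one held called genes. Of its 8 genes, 6 were called higher in 1G11-SOD3, among them Acta2 (log2 difference 2.62) and Pdgfrb (2.39). Of all genes, counted by their brightest probe outside the middle, 1.19% were called higher. The called Col1a2 and Lum were well above background on no 1G11-mock array, and Pdgfrb on 1 of 3. The list's mean log2 intensity lay between 9.68 and 9.90 on the 1G11-mock arrays and between 11.25 and 11.58 on the 1G11-SOD3 arrays. None of 10 endothelial markers was called (8.29 to 8.87 against 8.20 to 8.54). Eng and the brighter of the 2 Kdr probes were well above background on all arrays. Both were lower in 1G11-SOD3 without overlap, by -1.05 (adjusted p = 0.0821, limma) and -0.51 (adjusted p = 0.293, limma). So were 20.8% of all probes outside the middle well above background on all arrays. Of the 10 endothelial markers, 5 lay below 0 and 5 above. The other Kdr probe and those of Cdh5, the gene of VE-cadherin, Tek, Tie1, Erg and Emcn were well above background on no array. None of 6 epithelial markers (8.78 to 9.14 against 8.83 to 8.86) and none of 6 leukocyte markers (8.92 to 9.21 against 8.98 to 9.01) was called, and Ptprc and Epcam were well above background on no array, whereas Krt19, Cd3e and 1 of the 3 probes of Itgam were on all (its other 2 probes on none). The part of the mesenchymal difference in the values of the p53 target genes was not tested.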

How the data were processed

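For each of 6 arrays the authors deposited scanner intensities of every spot and its local background (mean and median pixels, not normalized between arrays), and log2 values already corrected by normexp (offset of 50) and quantile normalized, as 1 table. That table was recomputed from median pixel intensities, control spots included, to within 0.005. Here the mean intensity was corrected by normexp (offset of 50) against the local background median, taken to log2 and quantile normalized without control spots. Flagged outlier spots were left out, and spots of 1 probe were averaged, apart in and outside the middle.

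The lines were compared by limma 3.58.1 (R 4.3.3), with Benjamini-Hochberg adjustment over all probes, and the procedure was tested on simulated data. Number of arrays and signal over background limit the precision. The position surface was the local mean of each array's deviation within 8 columns, chosen because copies of held-out probes then differed least, and was taken off spots that passed the background test on 3 or more arrays. Arrays with the same replicate number share a slide column and deviated together (correlations 0.202, 0.140 and 0.138), so the number was tried as a block. After position adjustment these were 0.0920, 0.167 and 0.246, and the first was then below that of 1G11-mock array 2 with 1G11-SOD3 array 1 (0.133). The alternatives set beforehand were 15 settings with all arrays and each of 6 arrays left out.

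Named were all members with every probe, Sod3, and of 4 pathway lists the called genes and the 2 brightest others. Bax, Polk, Fdxr, Bbc3, Ccnb1, Birc5, the markers given by name, other probes of these genes and the probes that only mention a member were added after their values were seen. The members and lists were chosen with earlier results of these data known. Of 55681 probes, 26332 could not be given a gene name. Figures were drawn with Python 3.11.15 and matplotlib 3.10.9.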

Additional observations from a re-analysis of the deposited data

How the results depend on the processing

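The count of 3 member probes called ran from 0 to 4 when 1 array was left out (0 without 1G11-mock replicate 2, 1 without 1G11-SOD3 replicate 1) and became 6 with the scanner's processed signal at a common 75th percentile. No value could be given for members in the middle, where no member spot lies. The count of 8 other pathway genes fell to 5 with the position surface and ran from 4 to 8 over single arrays left out. The count of 920 probes called outside the middle became 7921 with the processed signal (677 higher and 7244 lower, against 327 and 593) and 1555 with scaling of the corrected values to the 75th percentile. It ran from 448 to 856 over single arrays left out. Higher calls made up 35.5% of these calls, 8.55% with the processed signal, 45.4% with the position surface and 53.6% with the middle left out (412 higher and 356 lower). The count of 772 in the middle became 469 without background correction, 3321 with the processed signal and 208 with the position surface, and ran from 312 to 1010 over single arrays left out. The difference of Trp53 ran from -0.0328 (without 1G11-mock replicate 1) to 0.66 and that of Phlda3 from -0.65 to 0.0257 (without 1G11-SOD3 replicate 3), both changing sign.

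The replicate block called Mdm2 in addition (-1.42, adjusted p = 0.0119) and changed no other member call, and it gave 10 pathway genes and 4 member probes in place of 8 and 3. Scaling to the 75th percentile moved the median of all probes outside the middle to -0.35, and the processed signal to -0.50, from -0.06. Relative to these medians Phlda3 lay at 0.09 and 0.00332, against -0.33 in the main values, and all other measured target probes stayed below 0, Btg2 at -1.77 and -1.70 and Sesn2 at -0.63 and -0.37. Other moves of calls included Mdm2 with both scalings and the position surface (-1.28, -1.25 and -1.14), Ccng1 without 1G11-mock replicate 1 (-1.13) and the second Trp53inp1 probe with the processed signal (-1.29). The causes were not tested. Probes near background and 3 arrays per line limit what can be seen of Gdf15 and Rrm2b.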
